A study of Mus musculus with 12 samples.

Results

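The first 3 days after birth were examined in the mouse auditory nerve by setting the 2 arrays of postnatal day 3 (P3) against the 2 arrays of postnatal day 0 (P0), 4 of the 12 arrays of the series, across 45037 probe sets. The mice were untreated CBA/CaJ of both sexes, a strain used in hearing research, and the later stages P7, P10, P14 and P21, also with 2 arrays each, lent their spread to the test and gave the later course of each gene. Both cochleas of a mouse were pooled into a sample, from which the bony shell, the lateral wall and most of the sensory epithelium had been dissected. The remaining modiolus holds the nerve with its neurons, glia and vessels as well as cartilage and bone, so the tissue was enriched for nerve and not pure. All values are log2 RMA values, on which a difference of 1 is a doubling, and values of different probe sets are not compared with each other.

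The auditory nerve carries the signals of hair cells to the brain through spiral ganglion neurons, whose axons are wrapped by Schwann cells outside the brain and by oligodendrocytes near it. In the days after birth the mouse still cannot hear: Schwann cells begin to lay down myelin, neurons refine their contacts, dividing cells leave the cycle, and the bone around the nerve forms. In bulk tissue of this kind, more cells of a type and more RNA per cell cannot be told apart.

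Markers of nerve were bright at both stages. Mbp, a structural protein of myelin, read 12.44 and 11.87 at P0 and 13.57 and 13.64 at P3, and Nefm, a neurofilament of axons, read 12.81 and 12.65 at P0 and 11.86 and 12.04 at P3; its difference was called, but not without any 1 of these 4 arrays. The arrays differed in other ways before any comparison. Xist, which is expressed from the inactive X chromosome of females, read 12.26 and 8.12 at P0 and 5.81 and 12.98 at P3, and the Y-linked Eif2s3y read 8.72, 9.75, 10.31 and 4.36 in the same order. P3 replicate 1 thus carried the Y-linked signal and P3 replicate 2 that of Xist, whereas P0 replicate 1 and several later arrays carried both, although the methods describe pooling the cochleas of 1 mouse. Whether tissue of more than 1 animal was in these samples cannot be told. The P3 replicates also lay further apart than the P0 replicates: 5.07% of probe sets were over 1.5-fold apart at P3 and 1.36% at P0. The poly-A spike controls, added to the RNA before labelling, also read higher on both P3 arrays than on both P0 arrays.

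A probe set was called when its adjusted p was under 0.05 by limma, with Benjamini-Hochberg adjustment over all 45037 probe sets, and its fold was over 1.5. From P0 to P3, 442 probe sets (0.981%) were called higher and 1261 (2.8%) lower, and in all 1703 both arrays of one stage lay beyond both arrays of the other. That order is close to built into a call, so it is no further support, and its share over all probe sets was not counted. With each gene represented by its brightest probe set, 293 of 18193 genes (1.61%) were higher and 688 (3.78%) lower, against a median change of 0.03 over all probe sets. Changes were mostly modest, with a median fold of 1.78 among the higher and 1.76 among the lower probe sets. Only 23 rises and 12 falls passed 4-fold. With 2 arrays per stage the calls depended on single arrays: 430 of the 1703 stayed called without P0 replicate 1, 526 without P0 replicate 2, 639 without P3 replicate 1 and 1124 without P3 replicate 2, although 1537, 1609, 1460 and 1597 of them, respectively, kept their direction and a fold over 1.5. A fit with the spike signal as a covariate, chosen after seeing the data, called 25 genes higher and 15 lower, and its counts are given beside the gene groups. Genes described with values stayed called whichever 1 of the 12 arrays was left out, unless the array that decided the call is named; "without either P0 array" means that leaving out the one or the other ended the call.

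**Figure D1:**
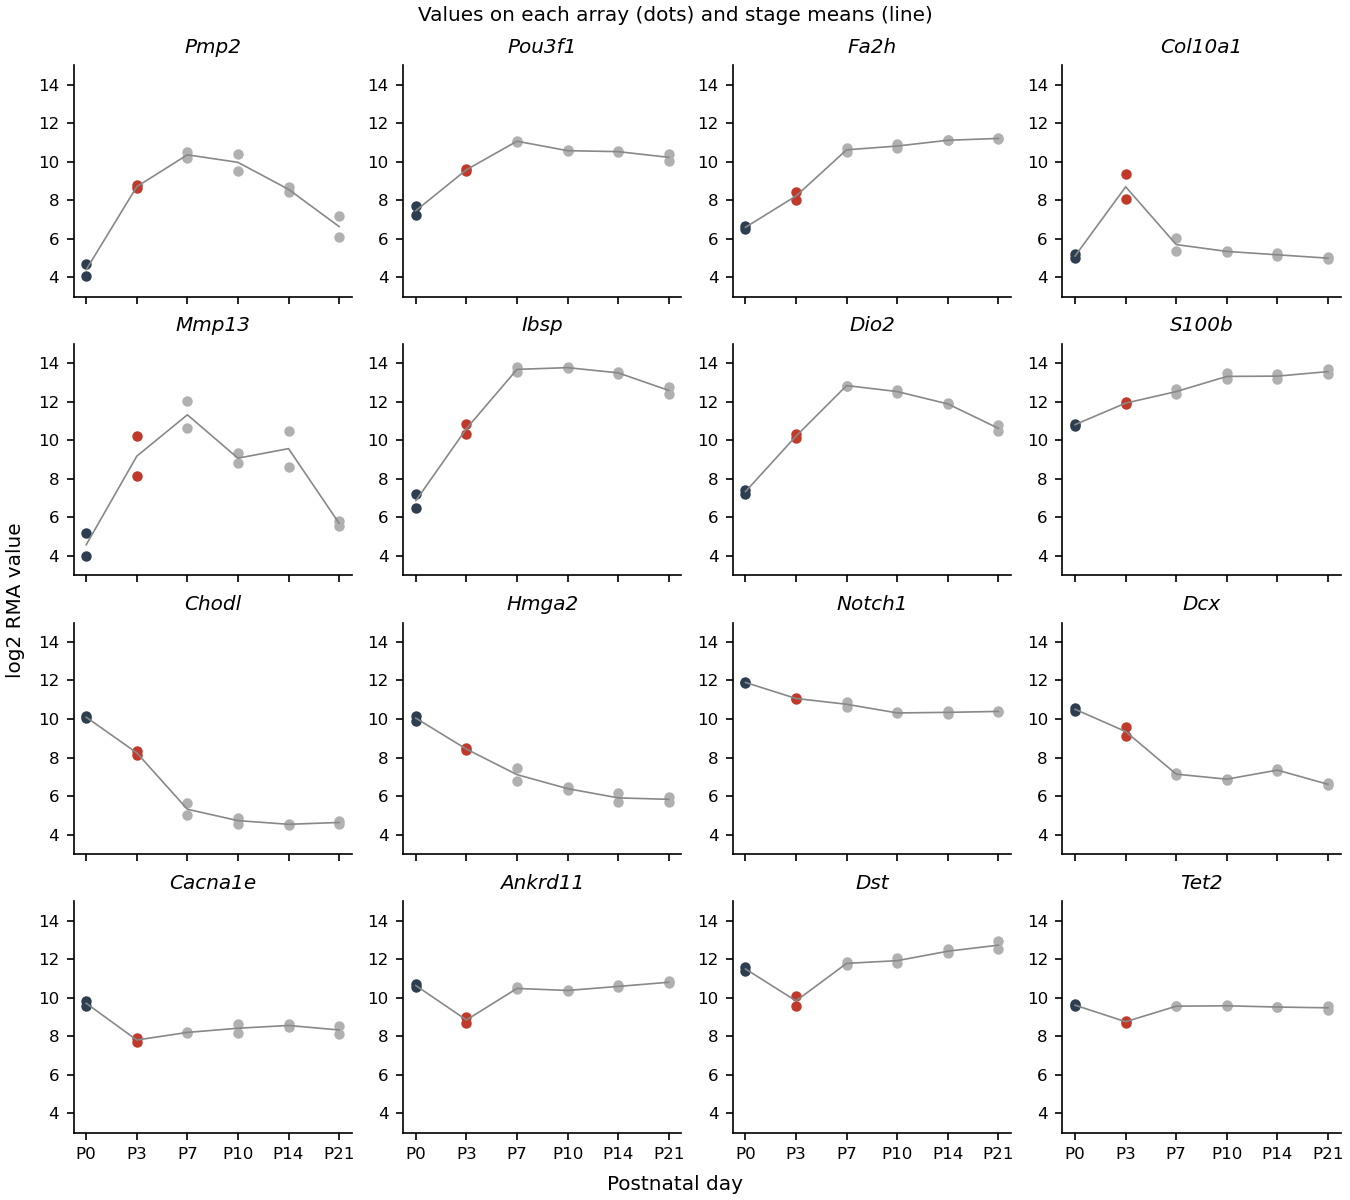
Log2 RMA value (y axis) of 16 genes on each of the 12 arrays (dots: P0 dark, P3 red, later stages grey) by postnatal day (x axis, stages evenly spaced), with a line through the stage means of 2 arrays. Col10a1 stood at 9.34 and 8.05 at P3 alone, Chodl and Hmga2 went on down after P3, and Ankrd11, Dst and Tet2 were low at P3 and back by P7.

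Myelin genes of Schwann cells rose. Of 16 peripheral myelin genes measured, 10 were called higher and 0 lower, and the list median was 0.99 against 0.035 over all genes. The count lay between 9 and 12 whichever array was left out, and was 5 with the spike signal as a covariate. Pmp2, which binds fatty acids in the peripheral sheath, read 4.09 and 4.71 at P0 and 8.80 and 8.61 at P3. The P0 values were under the 25th percentile of their arrays, so the rise is given as at least 12.2-fold (adjusted p = 0.000633). Pou3f1, which readies Schwann cells to myelinate by regulating transcription, rose from 7.23 and 7.69 to 9.63 and 9.53, a 4.35-fold rise (adjusted p = 0.000334), although a dimmer probe set of the gene gave a change of only 0.49 and was not called. Both genes were clearly separated between the stages, with replicates close together at P3.

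The lipid and junction genes of the sheath moved with them. Fa2h, which makes the hydroxylated fatty acids of myelin lipids, rose from 6.67 and 6.52 to 8.42 and 8.02, a 3.08-fold rise. Cldn19, a tight junction protein of Schwann cells, rose from 5.28 and 5.05 to 6.70 and 6.71, a 2.91-fold rise, and Mbp rose 2.73-fold, with 6 of its 8 probe sets called and the others at 0.13 and −0.10. Among the other 5 called members, of which Ugt8a was not called without P0 replicate 2, the folds ran from 1.78 for Pmp22, a membrane protein of compact myelin, to 2.52 for Mag, an adhesion molecule facing the axon. Fa2h continued upward to a mean of 10.61 at P7, whereas Pmp2 peaked there at 10.36 and was back at 6.63 by P21. The 19 genes of cholesterol synthesis, which supplies the sheath with sterol, had 0 members called by limma or by the methods' t-test after adjustment and a median of 0.10; 5 passed an unadjusted p of 0.05, all upward, and the largest change was that of Hsd17b7 (0.52, adjusted p = 0.0776).

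Genes of the wider Schwann lineage gave calls in both directions. Of 19 measured, 2 were called higher and 2 lower, beside shares of 1.61% and 3.78% over all genes. The list median was −0.37, with 12 changes negative and 7 positive. With the spike signal as a covariate 0 were called in either direction. S100b, a calcium-binding protein of maturing glia, rose from 10.76 and 10.87 to 12.00 and 11.86 (2.17-fold, adjusted p = 0.00415). Dhh, the ligand by which Schwann cells organise the nerve sheath, was called higher at 1.67-fold, but not without P0 replicate 2, either P3 array or either array of P7 or P10, which left 1 higher. L1cam and Ncam1, adhesion molecules of immature and non-myelinating Schwann cells and of axons, were called lower at 2.07-fold and 1.95-fold. Ncam1 was not called without either P0 array or P3 replicate 1, and L1cam was called only without an array of P21. Their other probe sets disagreed, since one for L1cam gave a change of 0.07 and one for Ncam1 was called higher at 0.64.

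Glia of the central nervous system gave small numbers of calls, beside shares of 1.61% higher and 3.78% lower over all genes. Of 17 oligodendrocyte genes, 1 was called higher and 1 lower: Bcas1, a marker of oligodendrocytes at the onset of myelination that other tissues also express, rose from 10.15 and 10.07 to 11 and 11.11 (1.93-fold), with its dimmer probe sets at 0.10 and −0.01. Cspg4, a proteoglycan of oligodendrocyte precursors and pericytes, was called lower at 1.64-fold but in no fit without an array of P0, P3, P10 or P21. Mog, a surface protein of the central sheath, was under the 25th percentile of its arrays at both stages. Of 12 astrocyte genes, 3 were called higher. The largest change was in Aqp4, a water channel that supporting cells of the cochlea also carry, from 7.52 and 6.54 to 8.60 and 9.80 (4.50-fold, adjusted p = 0.011). Without P0 replicate 2 none of the 3 was called, and for Aqp4 the adjusted p was 0.081; with the spike signal as a covariate 1 of the 3 was called, and 0 of the oligodendrocyte list.

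Genes of bone and of hypertrophic cartilage rose. Of 12 osteoblast genes 7 were called higher, with a median of 1.315, and of 19 cartilage genes 5 were called higher, with a median of 0.63; 0 of either list were called lower. With the spike signal as a covariate, 4 osteoblast genes and 1 cartilage gene were called higher, and Col10a1 was not. Col10a1, the collagen made by hypertrophic chondrocytes, read 5.20 and 5.02 at P0 and 9.34 and 8.05 at P3, a 12-fold rise (adjusted p = 0.000913). It had returned to a mean of 5.70 by P7, so among the stages sampled it was high at P3 alone. Panx3, a channel protein of hypertrophic chondrocytes and osteoblasts, rose from 6.69 and 5.78 to 9.70 and 8.87, an 8.28-fold rise, and went on to 11.89 at P7. Its dimmer probe sets did not follow (0.26 and 0.00).

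Mmp13, the collagenase that clears hypertrophic cartilage, rose from 5.18 and 3.99 to 8.15 and 10.21 (adjusted p = 0.00922; 0.0786 when P0 replicate 2 was left out). The value of P0 replicate 2 was under the 25th percentile of its array, and with that percentile, 5.13, in its place the rise was 16.3-fold. The log2 change was 5.62 without P3 replicate 1 and 3.56 without P3 replicate 2. Its P3 values differed by more than 4-fold between the replicates, yet both were far above P0. Snorc, a cartilage proteoglycan, rose from 7.45 and 7.08 to 9.99 and 8.70 and was back at a mean of 7.63 at P7 (4.23-fold, adjusted p = 0.00812; 0.0691 without P0 replicate 2). The cartilage count was 2 without P0 replicate 2 and 8 without P3 replicate 2. Col2a1, the main collagen of cartilage matrix, changed by −0.49, which missed the fold limit.

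Bone matrix genes followed a steadier course. Ibsp, a sialoprotein of mineralising bone, rose from 7.23 and 6.51 to 10.86 and 10.35, a 13.3-fold rise (adjusted p = 0.00015), and reached a mean of 13.68 at P7. Omd, a proteoglycan of bone matrix, rose from 8.20 and 8.12 to 11.16 and 10.40 (6.15-fold), and Phex, an osteocyte enzyme that keeps phosphate in balance, rose from 7.38 and 6.89 to 9.29 and 9.70 (5.13-fold; a dimmer probe set gave 0.60 and was not called). Dlx5, a transcription factor of osteoblasts, rose 3.54-fold and Dmp1, a mineralisation protein of osteocytes, rose 3.47-fold. Col1a1 and Col1a2, the collagen chains of bone that fibroblasts make as well, were not called (changes of −0.17 and −0.14). With P0 replicate 1, P0 replicate 2 or P3 replicate 2 absent, 5 osteoblast genes were called.

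Cells that resorb cartilage and bone gave a mixed picture. Of 14 osteoclast genes, 1 was called: Mmp9, a gelatinase, rose from 6.98 and 6.34 to 9.26 and 9.78 (7.26-fold, adjusted p = 0.0101), and was not called without either P0 array or P3 replicate 2 (adjusted p = 0.0502, 0.0834 and 0.0508). Acp5, the acid phosphatase of osteoclasts, read 6.47 and 4.82 at P0 and 8.20 and 8.40 at P3 and was not called (adjusted p = 0.0539). Ccl9, a chemokine of osteoclasts and myeloid cells, rose from 5.53 and 5.28 to 7.76 and 7.97 (5.50-fold) and had a P7 mean of 6.92.

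The stretch before the start of Mmp13 (chr9:7272264-7272513 on the plus strand of GRCm38.p6, from RefSeq) is shown because its log2 change was the largest in this group, with the core motif of RUNX factors, which drive hypertrophy and bone formation, in capitals. The motif was chosen after the values were seen and is TGTGGT on either strand, here on the reverse.
Mmp13: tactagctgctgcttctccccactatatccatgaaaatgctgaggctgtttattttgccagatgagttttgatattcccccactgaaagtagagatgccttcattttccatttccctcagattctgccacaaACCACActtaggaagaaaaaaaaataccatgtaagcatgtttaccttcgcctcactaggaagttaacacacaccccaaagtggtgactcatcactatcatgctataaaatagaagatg
Within 250 bases before the start, 5 of the 13 cartilage genes with a promoter sequence held the motif (38.5%), as did 2 of 9 osteoblast genes (22.2%) and 15.9% of the 27025 genes with a promoter. Col10a1 and Ibsp, 2 of the largest rises, held none in this window.

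A small number of genes of hormone handling were called, among them a large rise of Dio2. Over all genes 1.61% were called higher. Dio2, the enzyme that makes active thyroid hormone inside the cochlea, read 7.45 and 7.23 at P0 and 10.34 and 10.10 at P3, a 7.36-fold rise with the smallest adjusted p among the named genes (5.74e-05). It went on to 12.84 at P7. A dimmer probe set of Dio2 was called as well, at 1.5, while another gave 0.43. Slco1c1, which carries thyroid hormone into cells and stood in the endothelial list, rose from 9.59 and 9.45 to 11.07 and 11 (2.86-fold, adjusted p = 0.000633). Of 29 genes of thyroid, retinoid and steroid signalling, 4 were called higher and 0 lower, with a list median of −0.045; the count was 1, Dio2, without P0 replicate 1, and 1 with the spike signal as a covariate. The metallothioneins Mt2 and Mt1, which bind zinc and copper, were among the 4, at 2.53-fold and 2.38-fold; without P0 replicate 1 their adjusted p was 0.0551 and 0.0511, and the dimmer probe set of Mt1 gave −0.02.

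Among the largest rises outside these groups, Otos, the otospiralin of cochlear fibrocytes, read 5.41 and 6.37 at P0 and 11.10 and 10.27 at P3, the largest rise of all at 27.8-fold (adjusted p = 0.00015). Otos alone of 13 lateral wall genes was called. S100a4, a calcium-binding protein of motile and mesenchymal cells, rose from 6.84 and 6.90 to 9.65 and 9.31 (6.11-fold). Crhbp, which binds corticotropin-releasing hormone, rose 5.26-fold and Strip2, a scaffold of a kinase and phosphatase complex, rose 5.28-fold. Klrb1a, a receptor of natural killer cells, was under the 25th percentile at P0 and rose at least 3.41-fold to 7.01 and 6.72.

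**Figure D2:**
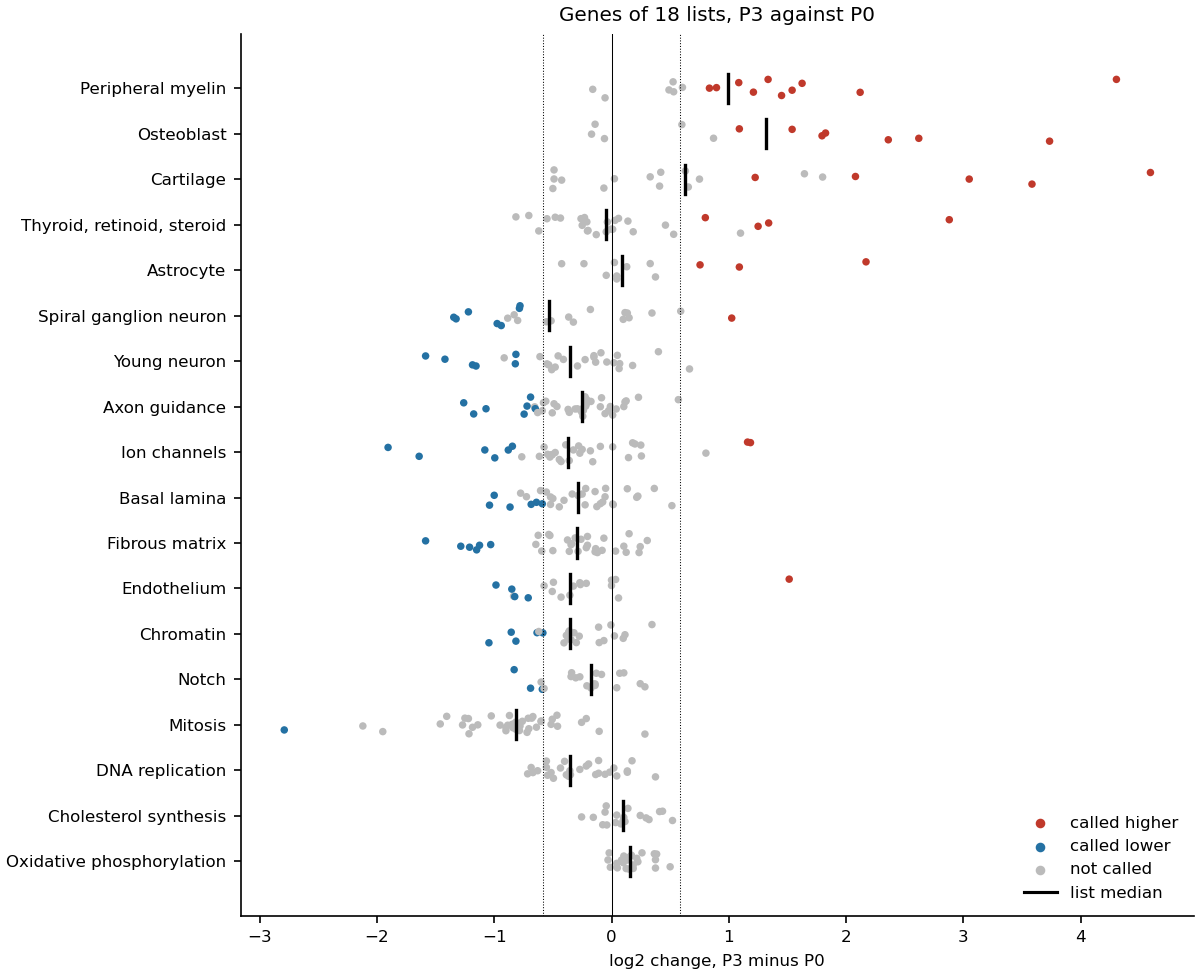
Log2 change from P0 to P3 (x axis) of each measured gene in 18 lists (rows), with genes called higher in red, called lower in blue and not called in grey; black bars are list medians and dotted lines the 1.5-fold limits. Myelin, osteoblast and cartilage genes extend to the right, with medians of 0.99, 1.31 and 0.63, and 40 of the 41 mitosis genes lie left of 0, of which 1 is called.

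Part of the genes of young, growing neurons fell. Of 28 measured, 6 were called lower and 0 higher, with a median of −0.35. Dcx, a microtubule protein of newly born neurons, fell from 10.58 and 10.43 to 9.14 and 9.56, a 2.23-fold fall (adjusted p = 0.00225), and was at a mean of 7.14 by P7. A second probe set was also called lower (−1.24) while another gave 0.08. Mapt, the axonal protein tau, fell 2.68-fold and Map1b, a microtubule protein of growing axons, fell 3.00-fold, but Mapt was not called without P0 replicate 1 or P3 replicate 1, and Map1b was called in no fit without an array of P0, P3 or P10. The list held 1 called gene without P0 replicate 1 and 0 with the spike signal as a covariate.

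Receptors and cues of axon growth moved the same way, with 7 of 40 called lower, 0 higher and a median of −0.25. Dcc, a receptor for netrin, fell from 9.24 and 8.99 to 7.90 and 7.81, a 2.39-fold fall (adjusted p = 0.000857). Unc5d, another netrin receptor, fell from 9.80 and 9.79 to 8.51 and 8.73 (2.26-fold), and was not called without either P0 array. Sema6a, a semaphorin of the cell surface, fell from 9.34 and 9.19 to 8.04 and 8.35 (2.10-fold), and was not called without P0 replicate 1 or P3 replicate 1. Of the dimmer probe sets, one of Dcc was also called lower (−1.22) and the other gave 0.26, and those of Sema6a gave 0.07 and −0.39. Netrin itself, Ntn1, had a change of 0.105 and was not called. The count for this list was 1 without P0 replicate 1, and 1 with the spike signal as a covariate.

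Of 22 genes that mark spiral ganglion neurons, 7 were called lower and 1 higher, with a median of −0.535. Prph, a filament protein of type II spiral ganglion neurons and of young neurons, fell from 8.04 and 8.10 to 6.45 and 7.00. The fall was 2.54-fold (adjusted p = 0.00252), and the mean went on down to 6.01 at P7. The 3 dimmer probe sets of Prph changed by 0.12 to 0.18. Ntrk2, the receptor of the survival factor BDNF, fell 2.51-fold by its brightest probe set, and was not called without either P0 array or P3 replicate 1. The dimmer probe sets of Ntrk2 were not called and changed by −1.235 to 0.285. The brightest of them at P0 (mean 10.01) changed by −0.085. Calb2, the calcium buffer calretinin, was the member called higher, from 9.57 and 9.67 to 10.59 and 10.70 (2.03-fold), and was not called without any 1 of the 4 arrays of P0 and P3. Without P0 replicate 1, and likewise without P3 replicate 1, 1 gene was lower and 0 were higher, and with the spike signal as a covariate 0 were called. Among 21 synapse genes 3 were called lower and 1 higher. Among 34 transmitter receptors 2 were lower and 1 higher, beside 3.78% lower and 1.61% higher over all genes. In either list 0 were called without P0 replicate 1, and 0 with the spike signal as a covariate.

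Pores of calcium channels led the falls among channels. Of 34 channel genes, 6 were called lower and 2 higher, with a median of −0.375, and 5 of the 6 encode pore subunits of calcium channels. Cacna1e, the R-type pore, fell from 9.84 and 9.58 to 7.70 and 7.91, a 3.75-fold fall (adjusted p = 0.000857), although its other probe set gave −0.06. Cacna1h, a T-type pore, fell from 8.59 and 8.35 to 6.73 and 6.93 (3.12-fold), while its dimmer probe set gave −0.325 and was not called. Cacna1c, an L-type pore, fell from 7.43 and 7.41 to 6.35 and 6.33 (2.11-fold), and its dimmer probe set was also called lower (−1.07). The others were Cacna1g and Cacna1b, at 1.84-fold and 1.80-fold, and the sodium channel Scn9a, at 1.99-fold; Cacna1b was not called without P0 replicate 1 or P3 replicate 1, nor Scn9a without P0 replicate 1. Kcna1, a potassium channel beside the nodes of Ranvier, rose from 9.39 and 9.16 to 10.21 and 10.66 (2.23-fold), with adjusted p = 0.0664 without P0 replicate 2. The sodium channel Scn1a was called higher at 2.27-fold but not without P0 replicate 2, either P3 array or either array of P10, P14 or P21. The count of falls lay between 4 and 7 over the 12 fits without 1 array and was 1 with the spike signal as a covariate, in which Cacna1e and Cacna1h were not called; without P0 replicate 2 none of the channels was called higher.

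Further falls were spread over genes of several kinds. In the lists of imprinted growth genes (15), fetal RNA-binding and related genes (5) and the insulin-like growth factor axis (11), 1 each was called lower. With the spike signal as a covariate it was 0. Over all genes 3.78% were called lower, so single calls in lists this short do not describe the lists. Hmga2, a chromatin protein of fetal and stem cells, fell from 9.91 and 10.18 to 8.50 and 8.38 and to means of 7.11 at P7 and 5.83 at P21 (3.04-fold to P3, adjusted p = 0.00483; 0.0504 without P0 replicate 2). Chodl, a membrane lectin, fell from 10.03 and 10.16 to 8.14 and 8.35 (3.61-fold, adjusted p = 0.00126) and was at 5.32 by P7. Fbn2, the fibrillin of fetal matrix, fell from 12.72 and 12.57 to 11.56 and 11.48 (2.18-fold) and was at 7.82 by P21. A dimmer probe set of Fbn2 gave −0.8 and was not called. Fndc1, a matrix protein with fibronectin domains, fell from 9.54 and 9.66 to 7.83 and 7.77 (3.48-fold, adjusted p = 0.000327), while its dimmer probe set gave 0.06. Zfhx2 and Zfp469, which encode zinc finger proteins, fell 3.42-fold and 3.04-fold, and Mast4, a kinase of microtubules, fell 2.96-fold with its 7 dimmer probe sets between −0.28 and 0.31. Fndc1 was called with the spike signal as a covariate, and Zfhx2, Zfp469 and Mast4 were not. Neither Chodl nor Fbn2 was called in that fit. Fndc3c1 fell from 6.76 and 6.79 to under the 25th percentile at P3, and is given as a fall of at least 3.08-fold. Igf1r, the receptor of insulin-like growth factors, fell 1.89-fold and was not called without P0 replicate 2.

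Signalling pathways of progenitors gave small numbers of calls, mostly downward. Over all genes 3.78% were called lower and 1.61% higher. In the Notch pathway 3 of 21 genes were called lower: Notch1, the receptor itself, fell from 11.91 and 11.88 to 11.04 and 11.09 (1.78-fold, adjusted p = 0.00356), while Notch4 and Notch2 passed by 1.61-fold and 1.51-fold and were called in no fit without an array of P0 or P3, nor Notch2 without one of P7, P10 or P21. In the Wnt pathway 3 of 30 were lower and 1 higher; Axin2, a target and inhibitor of the pathway, fell 1.82-fold and was not called without P0 replicate 2, while the secreted Wnt antagonist Sfrp4 rose 2.06-fold and was not called without P0 replicate 1. In the Hedgehog pathway 2 of 12 were lower and 1, Dhh, higher; the transcription factors Gli2 and Gli3 were called lower, both at 1.94-fold, and neither was called without either P0 array or P3 replicate 2, nor Gli2 without P3 replicate 1. Of 24 fibroblast growth factor genes 0 were called by limma or by the adjusted t-test, with 7 at an unadjusted p under 0.05, and 5 of 24 chromatin genes were called lower, of which Tet2, an enzyme that oxidises methylated cytosine, fell from 9.66 and 9.56 to 8.80 and 8.71 (1.81-fold, adjusted p = 0.0023) and the other 4 were called neither without P0 replicate 1 nor without P0 replicate 2. The dimmer probe set of Tet2 gave −0.19 and was not called. With the spike signal as a covariate, 0 genes of the Notch, Hedgehog and chromatin lists were called, and in the Wnt list 0 lower and 1 higher.

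Some matrix and vessel genes fell. Of 34 fibrous matrix genes 6 were called lower (median −0.30), of 33 basal lamina genes 6 (median −0.285) and of 19 endothelial genes 4 (median −0.355), and Slco1c1 was the only member of these lists called higher. Besides Fbn2, these included Col6a3, a chain of collagen VI in the nerve sheath, which read 12.25 and 12.12 at P0 and 10.24 and 10.96 at P3 (3.00-fold), and Col4a2, a chain of the basal lamina collagen IV, which read 11.81 and 11.68 at P0 and 10.57 and 10.84 at P3 (2.06-fold). Cdh5, the cadherin of endothelial junctions, read 9.65 and 9.42 at P0 and 8.54 and 8.83 at P3 (1.80-fold). Without P0 replicate 1 or P3 replicate 1 none of these 3 was called, nor were Col6a3 and Col4a2 without P0 replicate 2, nor Col4a2 without P3 replicate 2. The counts also rested on single arrays: without P0 replicate 1 they were 1, 0 and 0, and without P3 replicate 1 they were 1, 0 and 0, while without P3 replicate 2 they were 6, 6 and 1 and without P0 replicate 2 they were 1, 2 and 1. With the spike signal as a covariate 0 genes of the 3 lists were called lower.

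Cell division genes were lower at P3, but chiefly on 1 array. Of 41 mitosis genes 40 had a negative change, against 7957 of all 18193 genes. The median of the list was −0.815, yet 1 was called. Mki67, the marker of cycling cells, fell from 11.34 and 11.18 to 7.56 and 9.38 (6.92-fold, adjusted p = 0.0311), and was not called without either P0 array, P3 replicate 1 or either P10 array. Averaged over the list, the value was 9.28 and 9.07 on the P0 arrays, 7.76 on P3 replicate 1 and 8.81 on P3 replicate 2, and each of the 41 genes read higher on P3 replicate 2 than on P3 replicate 1. For 30 of the 41 genes both P3 arrays were below both P0 arrays, but the share of all genes with this order was not counted. Without P3 replicate 2, 7 mitosis genes were called lower, while 0 were when P3 replicate 1 or any array of P0 or P10 was left out; without either P14 array, whose means over the list were 8.61 and 7.37, 8 were called. With the spike signal as a covariate 0 were called. The 29 genes of DNA replication had a median of −0.35 and 0 called by limma or the adjusted t-test, with 3 at an unadjusted p under 0.05, all downward.

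**Figure D3:**
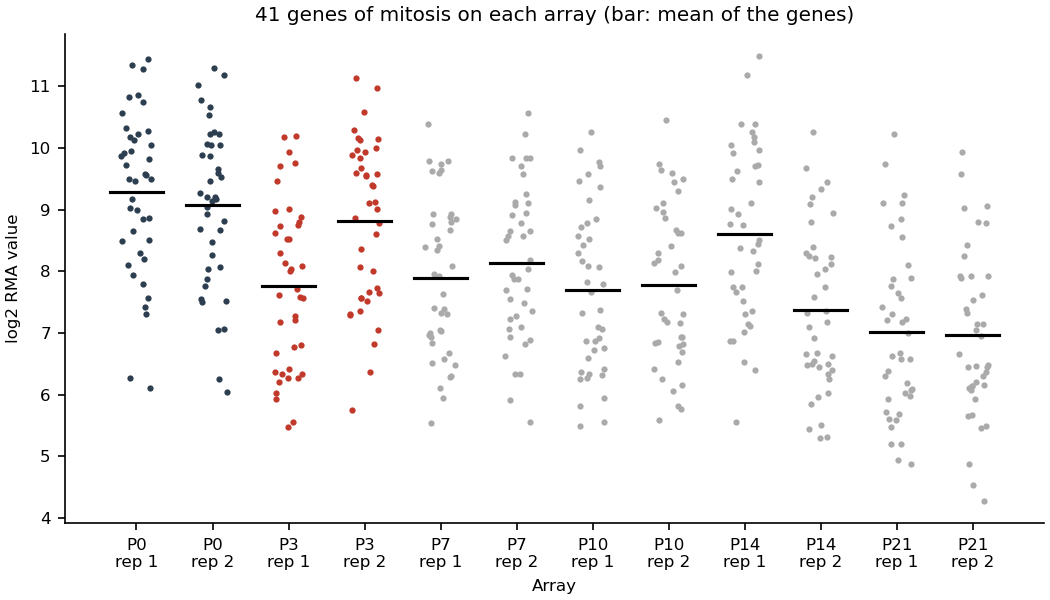
Log2 RMA values (y axis) of 41 mitosis genes (dots) on each of the 12 arrays (x axis), with a bar at their mean; P0 dark, P3 red, later stages grey. The mean was 7.76 on P3 replicate 1 and 8.81 on P3 replicate 2, against 9.28 and 9.07 at P0.

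Many mitosis genes share a pair of promoter elements, the CHR element (TTTGAA) and the CCAAT box (CCAAT). The 250 bases before the start are shown for the 3 genes of the list that hold both and had the most negative changes, Mki67 (chr7:135716380-135716629, minus strand), Top2a (chr11:99024190-99024439, minus strand) and Kif11 (chr19:37376132-37376381, plus strand), all in GRCm38.p6 from RefSeq, with both elements in capitals on either strand.
Mki67: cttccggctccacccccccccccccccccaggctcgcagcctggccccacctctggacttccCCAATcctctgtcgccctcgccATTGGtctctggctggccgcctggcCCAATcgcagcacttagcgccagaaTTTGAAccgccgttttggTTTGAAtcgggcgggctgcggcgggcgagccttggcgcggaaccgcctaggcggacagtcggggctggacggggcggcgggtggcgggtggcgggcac
Top2a: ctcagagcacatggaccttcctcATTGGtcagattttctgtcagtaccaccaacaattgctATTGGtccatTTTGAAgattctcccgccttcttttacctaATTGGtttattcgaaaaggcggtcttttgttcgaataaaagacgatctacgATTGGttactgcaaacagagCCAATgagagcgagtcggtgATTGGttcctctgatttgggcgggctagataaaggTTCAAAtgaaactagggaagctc
Kif11: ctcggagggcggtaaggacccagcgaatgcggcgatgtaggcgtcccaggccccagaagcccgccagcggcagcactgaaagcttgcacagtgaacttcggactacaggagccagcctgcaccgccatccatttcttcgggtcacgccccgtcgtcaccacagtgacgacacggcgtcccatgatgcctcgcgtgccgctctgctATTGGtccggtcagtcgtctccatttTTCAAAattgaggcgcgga
Top2a, which untangles replicated DNA, read 10.86 and 10.77 at P0 and 8.97 and 10.12 at P3, and Kif11, a motor of the spindle, read 9.56 and 9.21 at P0 and 7.62 and 8.87 at P3; neither was called (adjusted p = 0.183 and 0.207). Of the 35 mitosis genes with a promoter sequence, 13 held the CHR element (37.1%) and 26 the CCAAT box (74.3%), against 18.3% and 37.5% of all 27025 genes with a promoter, and 12 held both. The E2F sites TTTCGCGC or TTTGGCGC were in 2 of the 35 (5.71%) and in 4 of 23 DNA replication genes (17.4%), against 0.759% of all. The list was chosen for mitosis and not for these elements, and the shares are given as a description.

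Many of the lower genes were higher again at P7. P3 was also set against the mean of P0 and P7, with a call requiring both P3 arrays beyond all arrays of P0 and P7. By that measure 342 probe sets (0.759%) stood above both neighbours and 1112 (2.47%) below, in 193 and 568 genes. Of the 688 genes lower at P3 than at P0, 347 were among those below both neighbours. By P7, 251 of the 688 had come back by more than 1.5-fold from P3, 404 were within 1.5-fold of P3 and 33 had gone further down. Of the 293 higher genes, 113 went on by more than 1.5-fold at P7, 140 stayed within it and 40 came back. The P3 arrays enter both steps, so these counts describe courses and are no second test.

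**Figure D4:**
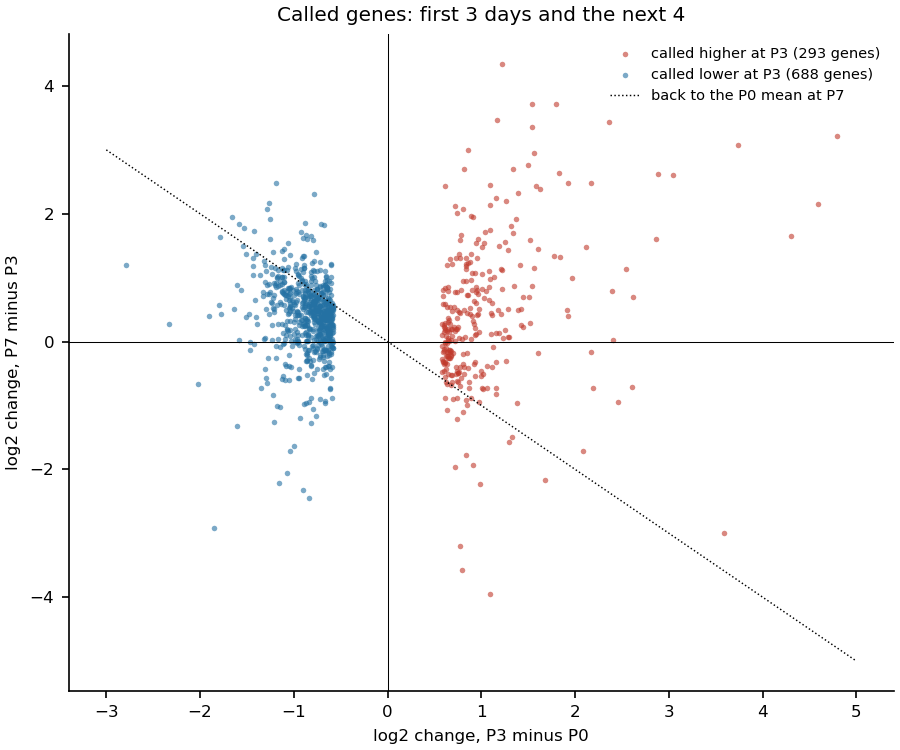
Log2 change from P0 to P3 (x axis) against log2 change from P3 to P7 (y axis) for the 293 genes called higher (red) and 688 called lower (blue); on the dotted line a gene is back at its P0 mean by P7. Most of the lower genes lie above 0 on the y axis, and both steps share the P3 arrays.

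Ankrd11, a chromatin cofactor, fell from 10.69 and 10.57 to 8.69 and 9 and was back at a mean of 10.48 at P7 (3.45-fold to P3; adjusted p = 0.000241 against both neighbours). Dst, a giant linker of the cytoskeleton, fell from 11.58 and 11.40 to 9.56 and 10.11 and stood at 11.78 at P7 (3.15-fold; adjusted p = 0.000808 against both neighbours). Probe sets of these genes disagreed: of the 7 for Ankrd11, 3 were called lower and the other 4 lay between −0.22 and 0.14, and of the 4 for Dst, 2 were called lower and the others gave 0.19 and −0.08. Clec2d, a lectin of immune cells, fell from 8.41 and 8.43 to 7.26 and 7.20 and then rose to 9.71 at P7. By its brightest probe set Tet2 read 9.56 at P7, near its level at P0.

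Malat1, a long nuclear RNA, was lower at P3 than at either neighbour, at 10.11 and 9.16 against 11.19 and 10.73 at P0 and a mean of 12.21 at P7 (adjusted p = 0.00573 against both neighbours), although its difference from P0 alone was not called (adjusted p = 0.0563). Above both neighbours at P3 stood Col10a1 and, of genes that read higher at P0 than at P7, Spink5, a protease inhibitor, at 6.65 and 6.95, then 7.99 and 7.79, and a mean of 3.94 at P7 (adjusted p = 0.000161), and Matn1, a cartilage matrix protein, at 10.02 and 9.97, then 10.75 and 10.55, and a mean of 6.92 at P7 (adjusted p = 0.000826). Agr3, of the protein disulphide isomerase family, at 10.29 and 10.55, and Comp, a cartilage matrix protein, at 9.55 and 7.37, also stood above both neighbours at P3, whereas Kcna2, a potassium channel of the nerve, at 7.87 and 7.82, and Snhg11, a noncoding RNA, at 4.79 and 5.48, stood below. None of these 4 was called against P0 alone, and neither was Matn1 (change 0.655, limma adjusted p = 0.161). The calls against both neighbours in Ankrd11, Dst, Malat1, Col10a1, Spink5, Matn1, Agr3 and Kcna2 stood in all 12 fits without 1 array; that of Comp was lost without P0 replicate 2, P3 replicate 1 or P7 replicate 1 and that of Snhg11 without P0 replicate 1 or either P3 array, while the rise of Spink5 from P0 was not called without P0 replicate 1.

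Genes lower at P3 were long. The median genomic length was 80.8 kb for the 688 lower genes and 86.3 kb for the 347 that were below both neighbours, against 17.2 kb for the 293 higher genes and 20.2 kb for all genes. In the shortest of 10 equal classes of length 0.441% of genes were called lower, and in the longest, over 117 kb, 13.1%, whereas the share called higher lay between 1.32% and 1.93% in every class. The median change was 0.115 in the shortest class and −0.16 in the longest. The spike and Actb measures differed between the stages as well: the poly-A spikes averaged 9.21 and 9.14 at P0 and 10.17 and 9.55 at P3, and the difference between 3′ and 5′ probe sets of Actb was 1 and 1.24 at P3 against 0.92 and 0.95 at P0. With the Actb difference as a covariate 934 probe sets were called lower and 311 higher, and with the spike signal as a covariate 65 and 34. What part RNA quality or labelling had in the falls of long genes was not tested. The counts of the gene lists, among them those of channels and axon guidance, were not set against genes of like length.

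**Figure D5:**
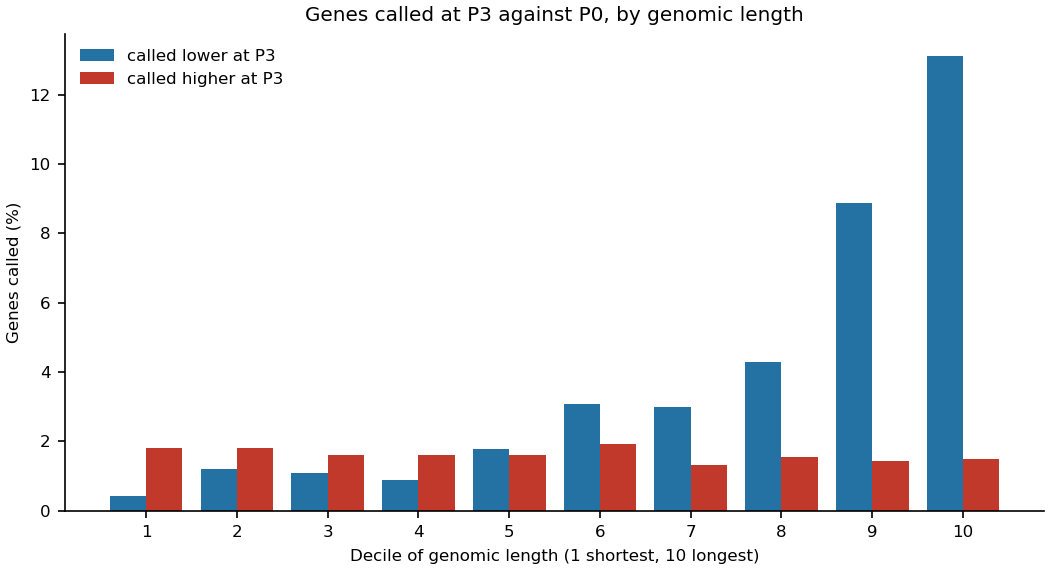
Share of genes called at P3 against P0 in percent (y axis), in 10 equal classes of genomic length from shortest to longest (x axis), for genes called lower (blue) and higher (red). The share called lower was 0.441% in the shortest class and 13.1% in the longest; the share called higher stayed between 1.32% and 1.93%.

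Markers of tissue around the nerve differed between single arrays. The 9 melanocyte genes averaged 7.67 and 8.32 at P0 and 9.14 and 7.20 at P3, and Tyr, the enzyme of pigment synthesis, read 7.25 and 7.90 at P0 and 10.42 and 6.31 at P3. Each of the 13 lateral wall genes read higher on P3 replicate 1 than on P3 replicate 2; Kcne1, a potassium channel subunit of the stria vascularis, read 9.72 and 6.17. For Otos the values were 11.10 and 10.27, both far above P0, and its rise was called whichever P3 array was left out. The 16 skeletal muscle genes averaged 6.25 and 6.90 at P0 and 6.17 and 6.23 at P3, with Tnnc2, a troponin of fast muscle, at 6.74 and 8.70 at P0 and 5.60 and 5.92 at P3. Gh, growth hormone, read 10.15 and 8.82 at P0 and 7.24 and 7.07 at P3, a 5.03-fold fall that was called except without P0 replicate 1 or either P3 array. The other 7 pituitary genes were not called. In the melanocyte list, Kit, a receptor of melanocytes and mast cells, was called lower (−0.74), but in no fit without an array of P0, P3, P7, P10 or P14. The part of this tissue in any result was not tested.

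Blood and immune lists gave few calls. Of 12 neutrophil, 17 erythroid, 10 B cell and 7 complement genes, 0 were called by limma or the adjusted t-test, with 0, 2, 2 and 2 at an unadjusted p under 0.05, and of 21 macrophage genes 1 was higher: Tyrobp, an adaptor of myeloid receptors (1.87-fold; not called without any 1 array of P0, P3 or P10). In the sensory epithelium, Atoh1, the transcription factor that specifies hair cells, was the only one of 17 hair cell genes called lower. It fell from 8.76 and 8.89 to 8.13 and 7.84 (1.79-fold), and was not called without either P0 array or P3 replicate 2. The hair cell list as a whole had a median of 0.145, with 12 changes positive and 5 negative. With the spike signal as a covariate 0 of its genes were called. Over all genes 3.78% were called lower and 1.61% higher. Genes of oxidative phosphorylation (23), ribosomal proteins (15), apoptosis (14) and immediate early response (21) had 0 calls by limma or the adjusted t-test, with 3, 1, 0 and 7 genes at an unadjusted p under 0.05. In the last list the largest change was in Fos, at 9.18 and 8.54 at P0 and 9.33 and 11.23 at P3 (adjusted p = 0.138).

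The list of genes that were followed by PCR in adult nerve injured with ouabain, and not in development, had 13 measured members, of which Dcx alone was called between P0 and P3 by its brightest probe set. A dimmer probe set of Nedd4l, a ubiquitin ligase, was also called lower (−0.74, adjusted p = 0.0207). Sox2, a transcription factor of glia and progenitors, read 12.19 and 12.17 at P0 and 12.35 and 12.55 at P3 (change 0.27, 95% interval −0.08 to 0.62), and Nes, a filament of progenitors, read 9.52 and 9.59 at P0 and 8.80 and 9.25 at P3 (change −0.53, interval −0.86 to −0.20). The histone deacetylases Hdac1 and Hdac2 changed by −0.105 (interval −0.40 to 0.19) and −0.065 (interval −0.32 to 0.19). For either gene the interval excludes a change of 1.5-fold.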

How the data were processed

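RNA of 12 samples, 2 at each of 6 stages, was hybridised to Affymetrix Mouse 430 2.0 arrays. The deposited values are log2 RMA values, made by the authors with Affymetrix Expression Console (version not given in the sources used here); MAS5 is also named in the submitters' processing notes. The values had been background corrected, quantile normalised and summarised per probe set, and were used as deposited. Quantile normalisation sets all arrays to one distribution, so a change shared by most genes would not be seen. The table held 0 columns of other samples. Arrays have no read depth; their number, 2 per stage, limits precision.

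Of 45101 probe sets, 64 controls were set aside. Of the 45037 tested, 34945 have 1 gene symbol, 932 several and 9160 none; those without a single symbol are never named. A gene stands for its brightest probe set with 1 symbol. The test was limma (version 3.58.1, R 4.3.3), with all 12 arrays fitted in 6 groups, with 6 residual degrees of freedom, and p-values were adjusted by Benjamini-Hochberg. No detection calls were used; a stage under the 25th percentile of values on both its arrays counts as dim, and its fold is then computed from that limit. Genomic lengths and promoters come from RefSeq on GRCm38.p6.

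Members and gene lists were chosen with earlier results of these data known. Named are, among called genes without placeholder symbols, the 15 that rose most and the 15 that fell most, the 5 genes furthest above and below both neighbours, up to 5 called members per list (or the one with the largest change) and, beside the study's PCR panel, Hdac1 and Hdac2. Not all of these are given in the text, and its other genes were chosen after their values were seen. On simulated data for P3 against P0, the test recovered 7 of 67 probe sets changed 1.5-fold, 60 of 67 changed 2-fold and 66 of 66 changed 4-fold, with 9 false calls. Simulated noise was drawn independently for each probe set and array, without shifts shared by many genes on 1 array. The 9 false calls therefore do not give the error rate of the real data. Alternatives tried were a replicate block, array weights, an intensity trend, no dim probe sets, the 4 arrays alone, a common median for all arrays, the Actb 3′ to 5′ difference as a covariate, the mean of a gene's probe sets, each array left out, the methods' t-test and, chosen after seeing the data, the spike signal as a covariate.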

Additional observations from a re-analysis of the deposited data

How the results depend on the processing

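With the replicate number as a block, 464 probe sets were higher, 1275 lower, 339 above and 1119 below both neighbours; the deviations of same-numbered samples correlated by 0.14 between P0 and P3 and by −0.12 to 0.32 over the 15 pairs of stages, with 6 over 0.1, and no source says that the numbers pair samples, so they were not treated as pairs. Leaving out 1 array at a time, the counts lay between 126 and 542 (higher), 327 and 1447 (lower), 168 and 401 (above both neighbours) and 732 and 1227 (below). The 4 arrays of P0 and P3 alone gave 89 and 232, and the methods' t-test 441 and 1181 at its unadjusted threshold but 0 and 2 after Benjamini-Hochberg. The Actb difference as a covariate left 107 above and 560 below both neighbours, and the spike signal as a covariate, chosen after seeing the data, left 34 higher, 65 lower, 5 above and 10 below; it removed more calls than any other setting except the adjusted t-test. An intensity trend, array weights, dim probe sets left out and arrays shifted to one median kept all 4 counts within 1.5 times. Of 122 called named genes 0 changed direction under any of the 21 alternatives; 41 stayed called whichever array was left out, 42 with the 4 arrays alone, 85 with the Actb difference and 24 with the spike signal. Among named genes that were not called, signs turned for Ednrb (0.0735) and Lig1 (0.0124) with the spike signal, and between fits without 1 array for Gfap (−0.155 to 0.415), Kdm5d (−4.73 to 0.01), Slc4a1 (−0.74 to 1.83), Vim (−0.075 to 0.045) and Shh (−0.215 to 0.235). The causes were not tested. Changes of 1.5-fold were mostly missed in simulation, in part because a call itself requires a measured fold over 1.5. With this limit and 2 arrays per stage, a gene not called may have changed.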
